A study of Mus musculus with 8 samples.

Results

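Cachexia-linked secreted factors are cytokines, growth factors and hormone-like proteins that tumors or their stroma release and that are known to promote muscle wasting, fat loss or anorexia. The set described here held 10 genes, chosen by name, with earlier results of these data known, and all 10 were among the 29968 genes of the deposited table. They were Il6, Lif and Osm of the IL-6 family, Gdf15 and Inhba of the TGF-beta superfamily, Tnf and Tnfsf12 of the TNF superfamily, Il1a and Il1b of the IL-1 family, and the hormone-like Pthlh.

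RNA-Seq was performed on orthotopic KPC tumors from 4 WT hosts (C57BL/6J) and 4 hosts lacking complement component 3 (C3-/-), all male and 12 weeks old. Each mouse received 250000 KPC cells in 50 μL of PBS in the pancreas. KPC FC1245 cells are a single line isolated from a mouse pancreatic tumor, and they carry an intact C3 gene, so that both groups held the same tumor cells and only the host differed. The study used the comparison to ask whether host C3 alters the tumor itself. No tumor-free pancreas was analysed here.

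In cachexia, IL-6, LIF and OSM signal through the shared receptor subunit gp130 and STAT3 in muscle, fat and liver. GDF15 acts on the brainstem to reduce food intake, activins act on muscle through type II activin receptors, and the PTHLH product, PTHrP, drives browning of fat. TNF, IL-1 and TWEAK (the product of Tnfsf12) act through NF-kB, and the same cytokines are made by myeloid cells of the tumor stroma as well as by tumor cells.

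Promoter sequence is given for the members whose values differed most between genotypes or between tumors. Of the 10 members, 8 had a window in the RefSeq promoter table (GRCm38.p6), and Osm and Tnfsf12 had no entry. Each sequence below holds the 250 bases before the annotated start, 5′ to 3′ on the strand of the gene, with the letters of a searched motif in capitals. Both strands were searched for AP-1 (TGANTCA) and for the NF-kB consensus. The same was done for the TATA box (TATAAA). Lif is on the + strand (chr11:4257318-4257567), Il6 on the + strand (chr5:30012864-30013113), Il1b on the - strand (chr2:129371140-129371389) and Tnf on the - strand (chr17:35202008-35202257).
Lif: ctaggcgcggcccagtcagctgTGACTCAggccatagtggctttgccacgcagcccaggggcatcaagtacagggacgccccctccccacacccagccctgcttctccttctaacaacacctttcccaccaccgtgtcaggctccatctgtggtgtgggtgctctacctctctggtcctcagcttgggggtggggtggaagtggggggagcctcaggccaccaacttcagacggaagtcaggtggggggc
Il6: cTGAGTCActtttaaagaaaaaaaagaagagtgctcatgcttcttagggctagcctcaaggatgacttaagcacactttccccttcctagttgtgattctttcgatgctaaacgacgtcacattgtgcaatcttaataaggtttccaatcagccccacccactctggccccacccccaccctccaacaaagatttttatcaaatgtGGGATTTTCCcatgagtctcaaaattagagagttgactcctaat
Il1b: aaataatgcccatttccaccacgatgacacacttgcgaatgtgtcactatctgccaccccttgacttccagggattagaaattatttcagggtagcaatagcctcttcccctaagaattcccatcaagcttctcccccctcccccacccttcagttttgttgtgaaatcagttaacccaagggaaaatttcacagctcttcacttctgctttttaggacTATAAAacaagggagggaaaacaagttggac
Tnf: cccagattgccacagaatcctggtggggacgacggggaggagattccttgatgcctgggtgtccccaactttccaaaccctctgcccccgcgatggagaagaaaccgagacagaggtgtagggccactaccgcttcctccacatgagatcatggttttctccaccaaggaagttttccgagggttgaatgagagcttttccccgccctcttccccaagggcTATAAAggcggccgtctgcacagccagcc
The Lif window held an AP-1 match that began 228 bases before the start. The Il6 window held an AP-1 match beginning 249 bases and an NF-kB match beginning 44 bases before the start. The TATA box began 31 bases before the start in Il1b and 29 bases before it in Tnf. Of 32851 promoter windows of this length, 6.75% held the AP-1 letters, 12.4% the TATA box and 5.93% the NF-kB consensus. Among the other members, the Il1a window had an AP-1 and a TATA match and the Inhba window a TATA match, whereas the windows of Gdf15 and Pthlh had none of these letters.

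The tumors yielded between 13266029 and 23354212 counted read pairs each, and 16610 genes passed the filter on low counts. C3 was higher in all 4 WT tumors, at 210, 426, 226 and 324 CPM (counts scaled to the TMM-normalized library size), than in the C3-/- tumors, at 109, 134, 100 and 101 CPM, with a log2 fold change of -1.42 (SE 0.23). Epithelial markers were abundant in every library (summed level 5269 to 9983 CPM), and all 7 tested had lower fitted levels in C3-/- tumors (median log2 fold change -0.19, 0 at an unadjusted p below 0.05 in edgeR). Skeletal muscle markers ranged from 1.05 to 3498 CPM in WT tumors and from 1.46 to 3213 CPM in C3-/- tumors, so some libraries held muscle RNA and others almost none. Of the 4 mesothelial and 4 hepatocyte markers tested, all had lower fitted levels in C3-/- tumors and 2 of each had an unadjusted p below 0.05 in edgeR, beside 5.11% of all genes, while T cell markers summed to 3.32 CPM at most. In bulk tumor RNA, fewer cells of a type and less RNA per cell cannot be told apart.

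By edgeR's quasi-likelihood test, 0 of the 9 members tested differed between genotypes at an adjusted p below 0.05, in a table where 0% of all genes did. DESeq2 also called 0 members, against 0.0799% of all genes. At an unadjusted p below 0.05, edgeR gave 1 member, Lif, against 5.11% of all genes tested. In CPM, the groups did not overlap for 1 of the 9 tested members, Tnfsf12, against 3.73% of all genes tested, and for Tnf, which did not pass the filter. Of the 9 tested members, 5 had higher and 4 had lower fitted levels in C3-/- tumors, with a median log2 fold change of 0.32 beside a median of -5.84e-05 over all genes.

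**Figure D1:**
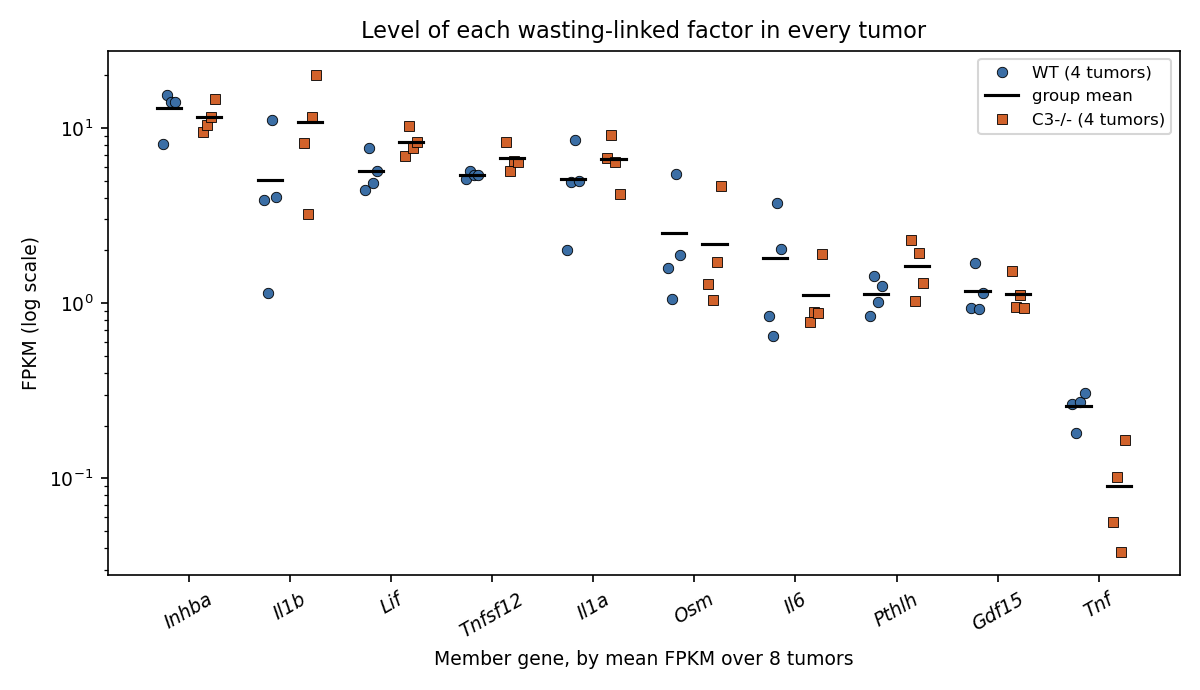
FPKM (log axis) of the 10 factors in each of 8 tumors, ordered by mean; circles are WT and squares C3-/- hosts, and black bars are group means. Inhba had the highest mean, 12.2, and Tnf the lowest, 0.174, and the points of the genotypes overlap for every factor except Tnf.

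Levels of different genes were compared per length, in the FPKM that the authors deposited. Inhba, which encodes the activin A subunit, had the highest mean over 8 tumors (12.2 FPKM), followed by Il1b (7.91), Lif (6.97), Tnfsf12 (6.05) and Il1a (5.85). Osm (2.34), Il6 (1.46), Pthlh (1.38) and Gdf15 (1.15) formed a lower tier, and Tnf was lowest at 0.174 FPKM. By group mean, Il6 lay above Pthlh and Gdf15 in WT tumors (1.81, 1.13 and 1.17 FPKM) and below them in C3-/- tumors (1.11, 1.64 and 1.13 FPKM). The group mean of Il1b was 10.8 FPKM in C3-/- tumors but 5.04 in WT tumors, below Lif (5.66), Tnfsf12 (5.40) and Il1a (5.09). Single tumors weighed on these means, with 20.1 FPKM of Il1b in C3-/- replicate 4 and 11.1 in WT replicate 3. Whether the order differed by genotype was not tested. On the log2(FPKM + 0.1) scale, Il1b minus Lif averaged -0.21 over the 8 tumors. The first 5 genes of the pooled order made up 85.7% of the summed FPKM of the set. Inhba was the most abundant factor in 6 tumors and Il1b in C3-/- replicates 3 and 4, and Tnf was lowest in all 8.

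Of the 9 pairs of neighbours in this order, 3 differed beyond the spread of their paired difference between tumors. The order itself was taken from the mean FPKM of the same tumors. Il1a exceeded Osm in 7 of 8 tumors by 1.43 ± 1.09 on the log2(FPKM + 0.1) scale (SD; exact sign-flip permutation test, two-sided, Benjamini-Hochberg adjusted p = 0.0469). Osm exceeded Il6 in 7 of 8 tumors by 0.61 ± 0.42 (SD; same exact test, adjusted p = 0.0469), and Gdf15 exceeded Tnf in 8 of 8 by 2.26 ± 0.75 (SD; same exact test, adjusted p = 0.0469). The size of these differences depends on the offset, and on the log2(FPKM + 1) scale they were 1.09, 0.39 and 0.87. The other 6 pairs did not pass. For Inhba over Il1b, the difference was 1.03 ± 1.32 (SD; exact test, adjusted p = 0.141), and between Il1b, Lif, Tnfsf12 and Il1a the order was not resolved. Leaving out any 1 tumor gave 0 pairs past the threshold, but with 7 tumors the smallest p that this test allows is higher than with 8. The differences kept their direction, at 1.20 to 1.65 for Il1a over Osm, 0.52 to 0.72 for Osm over Il6 and 2.10 to 2.38 for Gdf15 over Tnf. This loss therefore cannot tell whether a pair rests on 1 tumor.

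The factors also differed in how far they varied among tumors. Tnfsf12, Inhba, Gdf15 and Lif were the steadiest, with coefficients of variation of 16.9%, 22.0%, 25.8% and 27.5% over the 8 FPKM values. Il1b, Osm and Il6 were the most variable, at 78.8%, 73.8% and 72.1%. The highest tumor exceeded the lowest by 17.7-fold for Il1b, 5.74-fold for Il6 and 5.24-fold for Osm. For Tnf it was 8.05-fold, on 1 to 12 counts per tumor.

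Among the IL-6 family ligands, Lif was the member with the smallest p. LIF is a gp130 cytokine that pancreatic tumors are known to secrete. Lif (chromosome 11 of mm39, 4207557 to 4222514) had 19.3, 33.5, 21.3 and 25.1 CPM in WT tumors and 30.2, 44.9, 33.8 and 36.8 CPM in C3-/- tumors. Of the 4 C3-/- tumors, 3 lay above the highest WT tumor, and the groups overlapped because WT replicate 2 exceeded C3-/- replicate 1. Mean levels were 5.66 ± 1.43 FPKM in WT and 8.28 ± 1.41 FPKM in C3-/- tumors (SD, n = 4 each). On the log2 scale, Lif differed by 0.55 (SE 0.20) between genotypes in edgeR, where p was 0.0179 before and 0.960 after adjustment, and DESeq2 gave an adjusted p of 0.606. An exact permutation test gave p = 0.0571 (two-sided; the smallest p that 4 tumors against 4 allow is 0.0286). The estimate moved between 0.44 and 0.73 with single tumors left out.

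Il6 encodes the founding cytokine of the family. Il6 (chromosome 5, 30218112 to 30224979) had 2.05, 1.58, 9.12 and 5.02 CPM in WT tumors and 1.92, 2.18, 2.14 and 4.70 CPM in C3-/- tumors. The WT tumors spanned the whole range of the C3-/- tumors, with WT replicate 3 the highest of all and C3-/- replicate 4 standing above the other C3-/- tumors. Il6 was estimated at -0.70 (log2, SE 0.54; edgeR adjusted p = 0.999) in C3-/- relative to WT tumors, and at -0.10 when WT replicate 3 was left out. These values rested on 21 to 121 counts per tumor.

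Osm encodes oncostatin M, a gp130 cytokine made mainly by myeloid cells, and is the neighbour of Lif on chromosome 11 (4186420 to 4191026, same strand). Its levels were 3.61, 2.41, 12.6 and 4.34 CPM in WT tumors and 2.95, 2.41, 3.91 and 10.7 CPM in C3-/- tumors. One tumor of each genotype stood high, WT replicate 3 and C3-/- replicate 4, and the remaining tumors lay close together. An estimate of -0.19 (log2, SE 0.59; edgeR adjusted p = 0.999) became 0.52 without WT replicate 3 and -0.89 without C3-/- replicate 4.

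Gdf15 and Inhba showed no resolved difference. Gdf15 (chromosome 8, 71082043 to 71085106) encodes the stress-induced ligand of the brainstem receptor GFRAL. It had 1.74, 3.16, 1.73 and 2.13 CPM in WT tumors and 2.85, 1.79, 2.08 and 1.75 CPM in C3-/- tumors, and the ranges overlapped nearly completely. Its estimate was -0.04 (log2, SE 0.31), between -0.22 and 0.18 with each tumor left out, so its sign was not fixed. Inhba (chromosome 13, 16186436 to 16206206) had 51.9, 98.6, 91.2 and 91.1 CPM in WT tumors and 61.5, 67.1, 74.3 and 94.8 CPM in C3-/- tumors. WT replicate 1 was the lowest of all 8 tumors and the other WT tumors were among the highest. Inhba was estimated at -0.16 (log2, SE 0.21, edgeR adjusted p = 0.999), between -0.33 and -0.07 with each tumor left out. Inhba overlaps 2 genes on the opposite strand, and the strand setting of the counting was not given in the sources used here.

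Pthlh encodes PTHrP, which signals through the receptor PTH1R. Pthlh (chromosome 6, 147153599 to 147165681) had 1.37, 2.34, 1.66 and 2.04 CPM in WT tumors and 3.74, 1.68, 3.15 and 2.13 CPM in C3-/- tumors. C3-/- replicates 1 and 3 exceeded every WT tumor, and the other C3-/- tumors lay within the WT range. edgeR estimated the difference at 0.53 (log2, SE 0.33, adjusted p = 0.99), between 0.32 and 0.70 with each tumor left out.

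**Figure D2:**
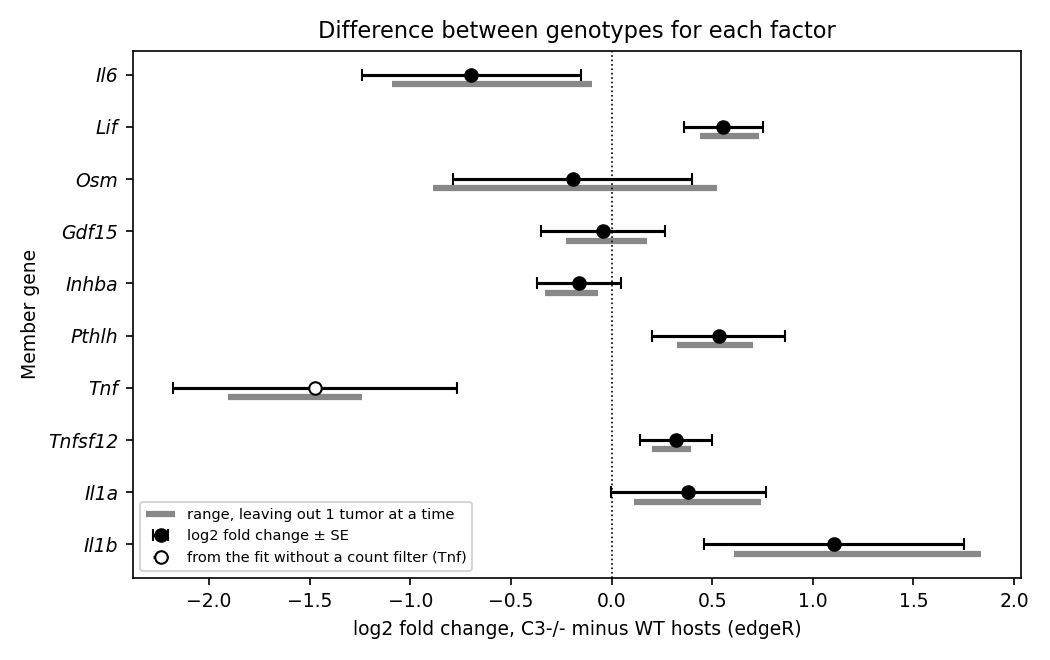
edgeR log2 fold change (C3-/- minus WT hosts) of each factor with its SE as whiskers; grey bars give the range when 1 tumor at a time is left out. Bars for Osm and Gdf15 cross 0, those of the other 8 do not, and the open point for Tnf (-1.47) comes from the fit without a count filter.

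The members whose genotypes did not overlap in CPM were Tnf, which was lower in C3-/- tumors, and Tnfsf12, which was higher. Tnf (chromosome 17, 35418357 to 35420983), an NF-kB-activating cytokine of myeloid cells once named cachectin, was barely detected, with 7, 4, 6 and 12 counts in WT tumors and 2, 3, 1 and 5 counts in C3-/- tumors. After scaling, these were 0.435, 0.301, 0.452 and 0.511 CPM against 0.0936, 0.168, 0.0630 and 0.273 CPM, so the highest C3-/- tumor was below the lowest WT tumor. An exact permutation test of the CPM gave p = 0.0286 (two-sided), the smallest that 4 tumors against 4 allow. Groups without overlap always give this value. The summed 11 reads in C3-/- and 29 reads in WT tumors gave a ratio of shares of 0.348 (exact 95% interval 0.157 to 0.717, which covers counting error only). Tnf did not pass the filter, and in the edgeR fit without a filter its log2 fold change was -1.47 (SE 0.70), a value that depends on the prior count, with an adjusted p of 0.810.

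Tnfsf12 encodes TWEAK, the ligand of the receptor Fn14. Tnfsf12 (chromosome 11, 69577076 to 69586675) had 7.71, 8.67, 8.29 and 8.30 CPM in WT tumors and 12.7, 8.68, 9.90 and 9.84 CPM in C3-/- tumors. The WT tumors were tightly grouped. The lowest C3-/- tumor cleared the highest WT tumor by 8.68 against 8.67 CPM (exact permutation test, two-sided p = 0.0286, as for any groups without overlap). In the deposited FPKM, which use another scaling, the order of these tumors turned, with 5.65 in the lowest C3-/- and 5.68 in the highest WT tumor, and the groups overlapped. edgeR estimated the difference at 0.32 (log2, SE 0.18, adjusted p = 0.985), between 0.20 and 0.39 with each tumor left out. The gene shares its strand and locus with the protein-coding Tnfsfm13, so its counts are uncertain.

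The interleukin-1 genes lie beside each other on chromosome 2 and encode ligands of one receptor, IL1R1. Il1b (129206490 to 129213059), the form secreted mainly by myeloid cells, had 7.40, 2.19, 21.5 and 7.74 CPM in WT tumors and 15.8, 6.27, 22.3 and 38.9 CPM in C3-/- tumors. C3-/- replicates 3 and 4 were the highest of the 8 tumors and WT replicate 2 the lowest, but WT replicate 3 lay close to C3-/- replicate 3. The estimate was 1.10 (log2, SE 0.64; edgeR adjusted p = 0.985), the largest among the tested members, and it ranged from 0.61 without C3-/- replicate 4 to 1.84 without WT replicate 3. Il1a (129141530 to 129151892), which is active also in its cell-bound form, had 3.98, 9.80, 17.0 and 9.87 CPM in WT tumors and 13.4, 18.3, 12.7 and 8.42 CPM in C3-/- tumors. The ranges overlapped broadly, and the estimate was 0.38 (log2, SE 0.38, edgeR adjusted p = 0.999), between 0.11 and 0.74 with each tumor left out. Each of these genes overlaps an antisense gene, Il1bos or Gm14023.

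The SEs set how much could be resolved. Changes of Il1b, Osm and Il6 had SEs of 0.54 to 0.64 on the log2 scale, against 0.18 to 0.21 for Tnfsf12, Lif and Inhba, so a difference the size of that of Lif was about 1 SE for each of the variable factors.

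**Figure D3:**
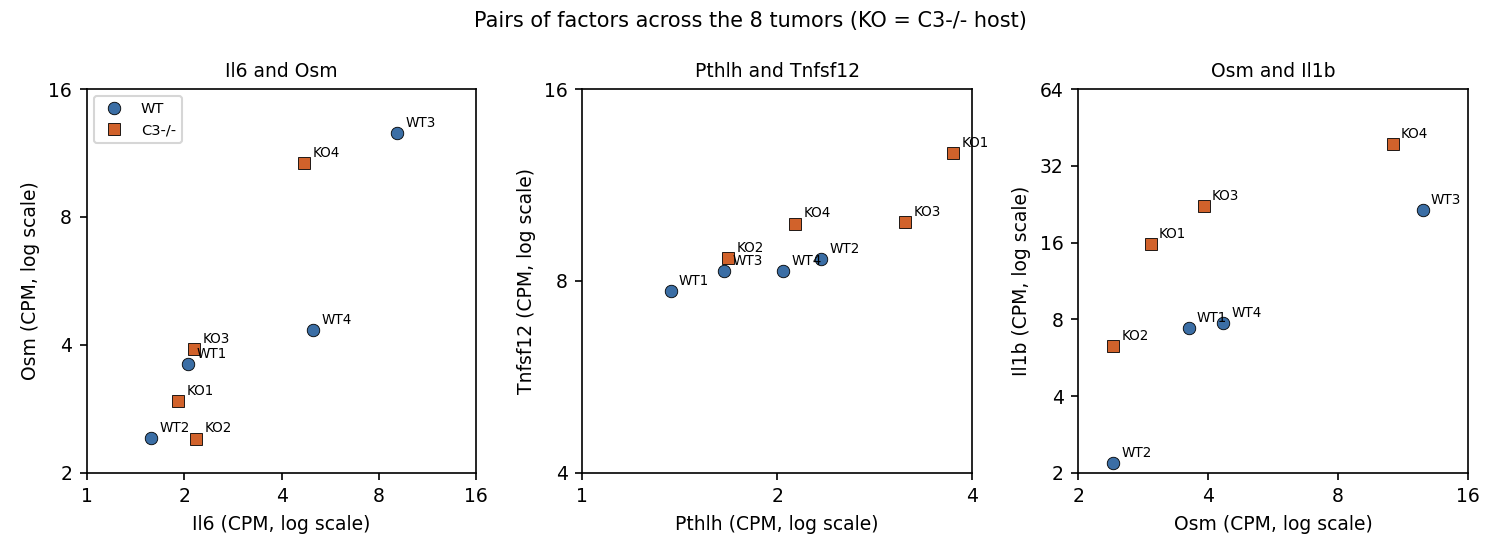
Each point is a tumor, with CPM of 1 factor on each log axis (circles WT, squares C3-/- hosts, KO marking C3-/-). WT replicate 3 and C3-/- replicate 4 are the highest for Osm (12.6 and 10.7 CPM), with 9.12 and 4.70 CPM of Il6, where WT replicate 4 has 5.02, and Pthlh and Tnfsf12 are both highest in C3-/- replicate 1.

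Across the 8 tumors, 2 of 36 pairs of members were correlated after adjustment, and 0 pairs passed when any 1 tumor other than C3-/- replicate 2 was left out. Il6 and Osm had Pearson r = 0.884 (exact permutation test, Benjamini-Hochberg adjusted p = 0.0446) and Spearman rho = 0.738 (exact permutation adjusted p = 0.412). The relation was seen within WT tumors (r = 0.927) and within C3-/- tumors (r = 0.945), each over 4 tumors and given without a test. Without WT replicate 3 and C3-/- replicate 4, r fell to 0.687 over 6 tumors (exact permutation p = 0.0514), so that the call rested on these tumors among others.

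Pthlh and Tnfsf12 also had r = 0.884 and rho = 0.881 (exact permutation adjusted p = 0.0446 for r and 0.261 for rho), with r = 0.931 within WT and 0.870 within C3-/- tumors. Without C3-/- replicates 1 and 3, r was 0.663 (exact permutation p = 0.138), so the call rested on those tumors among others. For Osm and Il1b, both myeloid products, r was 0.733 (exact permutation adjusted p = 0.462), which did not pass. By Spearman's rho, 0 of the 36 pairs passed.

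Myeloid markers were set beside these patterns. Macrophage and monocyte markers summed to 1218 to 1540 CPM in WT and to 943 to 2010 CPM in C3-/- tumors, and neutrophil markers to 65.5 to 155 CPM and 54.6 to 168 CPM. Over 81 pairs of a tested member and 1 of 9 marker lists (exact permutation tests), 0 were correlated after adjustment and 0 at an unadjusted p below 0.05 for Pearson's r. Neutrophil markers had r = 0.525 with Osm and 0.509 with Il6 over the 8 tumors (exact permutation adjusted p = 0.971 for both). They had r = 0.543 with Il1b, and macrophage and monocyte markers had 0.515 with Osm and 0.528 with Tnfsf12 (exact permutation adjusted p = 0.971 for each). Within the 4 WT tumors, neutrophil markers had r = 0.990 with Osm and 0.948 with Il6 (no test). Within the 4 C3-/- tumors these values were 0.152 and 0.013 (no test). Without WT replicate 3 and C3-/- replicate 1 they were 0.846 and 0.840 over the remaining tumors. Other pairs also came far from 0 within 4 tumors. Il1a and endothelial markers had r = -0.998 in C3-/- tumors, and Lif and acinar cell markers had -0.984 in WT tumors. The part of myeloid RNA in the Il6, Osm, Il1b and Tnfsf12 values was not tested. The lowest p was that of Lif and acinar cell markers (r = -0.693, rho = -0.786, exact permutation p = 0.0614 for r and 0.0279 for rho, adjusted p = 0.971 and 0.945; r = -0.904 without the 2 tumors farthest in acinar markers). Acinar markers summed to 426, 164, 286 and 159 CPM in WT tumors and to 1462, 65.5, 42.4 and 38.6 CPM in C3-/- tumors. C3-/- replicates 2, 3 and 4, the tumors with Lif above every WT tumor, were thus below every WT tumor in acinar markers, and replicate 1, whose Lif lay within the WT range, was the highest. Their part in the Lif values was not tested.

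Among all genes tested, those whose log2 CPM followed each member most closely over the 8 tumors are given as a description. For Il6 they were Clec5a, a myeloid receptor gene (r = 0.986), Cxcl2, a chemokine for neutrophils (r = 0.983), and Leo1 (r = 0.975). For Lif they were Stk36 (r = 0.986), Ppp1r9a (r = 0.980) and Gm38250 (r = 0.977), and for Inhba Vegfc, a lymphatic growth factor (r = 0.972), Rnf157 (r = 0.967) and Eif2ak1 (r = 0.965). For Il1b they were Gm12693 (r = 0.965), Ddx31 (r = 0.963) and Ifi47 (r = 0.951). Tmco6 was among the closest genes of both Pthlh (r = 0.950) and Tnfsf12 (r = 0.954). The other closest genes were Ano8 and St3gal2 for Pthlh, Rps6kb2 and Yjefn3 for Tnfsf12, Pigbos1, D130058E05Rik and Gm13669 for Osm, 6030445D17Rik, Spsb3 and Ffar2 for Gdf15, and Gm12500, Rwdd3 and E430018J23Rik for Il1a, with r between 0.925 and 0.970. With 8 tumors and 16610 genes, between 8 genes (for Pthlh) and 37 genes (for Lif) had r above 0.9 with a member.

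Receptors, inhibitors and response genes of the same pathways were examined in 8 lists. Of 101 genes listed, 98 were matched and 93 were tested, and edgeR and DESeq2 each called 0 of them at an adjusted p below 0.05. At an unadjusted p below 0.05, 7 of 93 differed (7.53%), 6 higher and 1 lower in C3-/- tumors, beside 5.11% of all genes. The genotypes did not overlap for 5 of the 93, where 3.73% of all genes tested did not overlap. The median log2 fold change over the 93 genes was -0.05.

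The gp130 subunit gene Il6st had 16.4 ± 3.38 FPKM in WT and 18.9 ± 4.61 FPKM in C3-/- tumors (SD, n = 4 each). The ligand-specific subunits were lower, with WT means of 5.08 FPKM for Lifr, 5.84 for Osmr and 2.61 for Il6ra. Log2 fold changes were 0.21 (SE 0.21) for Il6st, 0.28 (SE 0.19) for Lifr, 0.30 (SE 0.21) for Osmr and 0.00 (SE 0.24) for Il6ra. Of the 15 genes in this list, the smallest p values belonged to Tyk2, a Janus kinase gene (log2 fold change 0.42, SE 0.15, unadjusted p = 0.0212 in edgeR), and Ctf1, the gene of the gp130 ligand cardiotrophin-1 (0.69, SE 0.31, unadjusted p = 0.0481 in edgeR). The genotypes overlapped for both genes.

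The GDF15 receptor gene Gfral was not analysed here. For activin, the receptor genes Acvr1b (23.6 and 23.5 FPKM in WT and C3-/- tumors), Acvr2a (5.30 and 5.56) and Acvr2b (0.696 and 0.802) differed between genotypes by less than 1 SE each. Acvr1c, a type I receptor gene that did not pass the filter, had 3, 44, 4 and 12 counts in WT tumors and 3, 3, 0 and 2 counts in C3-/- tumors. Scaled to CPM the genotypes did not overlap, and most of the WT reads came from WT replicate 2. The fit without a filter gave -3.22 (log2, SE 0.96; edgeR adjusted p = 0.810), a value that depends on the prior count and that was -1.61 at its smallest with a tumor left out. Among genes of this list that passed the filter, the activin inhibitor genes had the smallest p values. Fst, encoding follistatin, had 11.6 ± 4.47 FPKM in WT and 8.52 ± 0.503 FPKM in C3-/- tumors (SD, n = 4 each), and its log2 fold change was -0.44 (SE 0.27). Fstl3 had 4.41 ± 1.93 and 3.06 ± 0.744 FPKM (SD, n = 4 each) with a difference of -0.52 on the log2 scale (SE 0.31), and neither passed even without adjustment. In the PTHrP list, Pth1r had a log2 fold change of -0.18 (SE 0.28) and Prkaca, a protein kinase A subunit gene, 0.11 (SE 0.11).

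Receptors for the scarce TNF and for TWEAK had higher mean FPKM than the ligands themselves. Tnfrsf12a, which encodes Fn14, had 114 ± 23.1 FPKM in WT and 102 ± 13.7 FPKM in C3-/- tumors (SD, n = 4 each), and Tnfrsf1a had 59.0 ± 2.16 and 55.2 ± 5.17 FPKM (SD, n = 4 each). Their log2 fold changes were -0.16 (SE 0.17) and -0.09 (SE 0.11), and that of Tnfrsf1b was 0.14 (SE 0.11). The smallest p values in the list were those of Relb, a non-canonical NF-kB subunit gene, and of Adam17, the sheddase that releases TNF (log2 fold change 0.20, SE 0.12). Relb had 25.4, 26.8, 27.3 and 26.5 CPM in WT tumors and 42.7, 32.1, 31.6 and 29.4 CPM in C3-/- tumors. The groups did not overlap, and the edgeR estimate was 0.36 (log2, SE 0.14), with an unadjusted p of 0.0316 that was 0.971 after adjustment.

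In the IL-1 list of 13 genes, Il1r2 had the smallest p. Il1r2, the decoy receptor that binds IL-1 without signaling, had 10.1, 10.2, 19.4 and 9.62 CPM in WT tumors and 9.08, 8.07, 6.49 and 8.75 CPM in C3-/- tumors. The groups did not overlap, although WT replicate 3 stood well above the other WT tumors. In edgeR the estimate was -0.60 (log2, SE 0.26), with an unadjusted p of 0.0410 that was 0.971 after adjustment, and it came to -0.30 at its smallest when 1 tumor was left out. The signaling receptor gene Il1r1 (log2 fold change -0.05, SE 0.15), its co-receptor gene Il1rap (-0.02, SE 0.31) and the receptor antagonist gene Il1rn (0.27, SE 0.20) overlapped between genotypes.

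Of 12 STAT3 and NF-kB response genes tested, 3 had an unadjusted p below 0.05, and all 3 were higher in C3-/- tumors without overlap, beside 5.11% of all genes at that p and 3.73% without overlap. Bcl3, an atypical IkB gene that both STAT3 and NF-kB induce, had 41.0, 47.8, 53.3 and 45.0 CPM in WT tumors and 83.5, 67.7, 62.1 and 64.5 CPM in C3-/- tumors. Bcl3 was estimated at 0.57 (log2, SE 0.14), with an unadjusted p of 0.00181 that was 0.933 after adjustment in edgeR. Nfkb2, which encodes the p100 precursor of non-canonical NF-kB, had 71.5, 67.1, 67.2 and 66.1 CPM in WT tumors and 92.4, 79.9, 80.1 and 91.0 CPM in C3-/- tumors. The WT tumors lay within a narrow band below every C3-/- tumor, with a log2 fold change of 0.34 (SE 0.10, unadjusted p = 0.00878 in edgeR). Cebpd, a STAT3-induced transcription factor gene, had a log2 fold change of 0.41 (SE 0.16, unadjusted p = 0.0284 in edgeR). Over the 12 genes, 7 were higher and 5 lower, with a median log2 fold change of 0.02.

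Both remaining lists had lower fitted levels in C3-/- tumors for every gene tested, with 0 genes at an unadjusted p below 0.05 in edgeR. For the other wasting-linked secreted factors, all 9 genes tested were lower (median -0.32 on the log2 scale), and the smallest p values were those of the chemokine gene Cxcl1 (-0.76, SE 0.54) and of Azgp1, which encodes zinc-alpha-2-glycoprotein (-0.64, SE 0.46). The second list held integrated stress response genes and other inducers or companions of Gdf15, among them Cdkn1a and Mdm2. All 9 of its tested genes were lower, with a median of -0.22, and Atf3 (-0.46, SE 0.25) and Cdkn1a (-0.38, SE 0.24) had the smallest p values. Genes of a list vary together across tumors, and no test was made on these directions. With single tumors left out, the estimate crossed 0 for 3 of the 9 genes in the first list and for 4 of the 9 in the second.

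**Figure D4:**
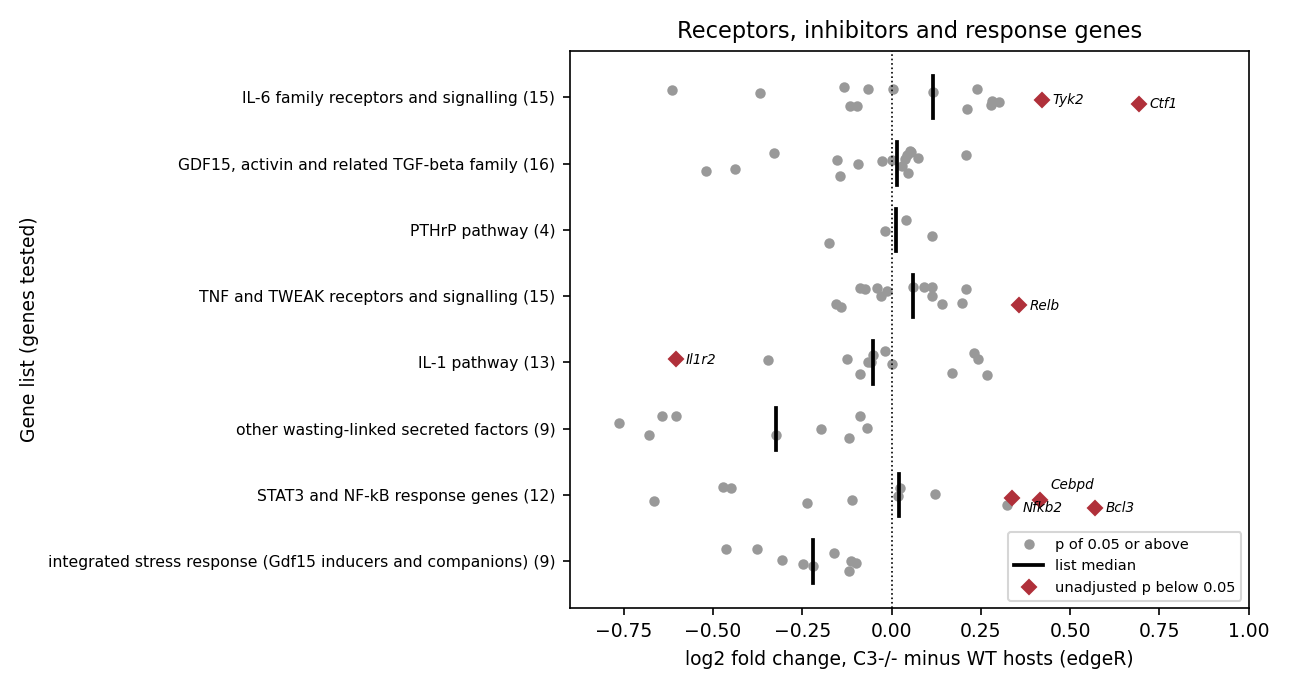
Log2 fold change (C3-/- minus WT hosts, edgeR) of the 93 tested genes in 8 pathway lists; vertical position within a list is spread for legibility only, black bars are list medians, and red diamonds mark the 7 genes at an unadjusted p below 0.05. Red points are Tyk2, Ctf1, Relb, Bcl3, Nfkb2 and Cebpd above 0 and Il1r2 below it, and 0 genes passed adjustment.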

How the data were processed

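RNA-Seq libraries from 8 KPC tumors were analysed, 4 per host genotype. Per the study's methods, the authors aligned reads with STAR and counted them with HTSeq, whereas the submitters' processing notes name HISAT2 2.0.5 with DESeq2 1.20.0. Both used mm39, and which aligner made the table was not resolved. The authors deposited raw counts per gene and FPKM values. Within a tumor, those FPKM equal the count divided by gene length, times a constant for that tumor. How that constant was set was not checked. The size-factor-normalized columns, the authors' mean columns and their fold changes and p-values were not used. Groups came from the labels, which give no batch and do not say which mice shared a cage or a surgery day. The p-values measure the spread between these tumors.

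Counts were tested in edgeR 4.0.16 (R 4.3.3) with TMM, filterByExpr (minimum count 10), a non-robust quasi-likelihood fit and Benjamini-Hochberg adjustment over all 16610 genes tested. CPM are counts scaled to TMM library sizes. Tnf, which failed the filter, took its fold change from the fit without a filter. Alternatives were DESeq2 1.42.0, DESeq2 size factors in edgeR, limma-voom (limma 3.58.1), limma on log2(FPKM + 0.1), no filter, at least 10 counts in every tumor, a robust fit, a replicate block and each tumor left out. Single values were compared by exact permutation of log2(CPM + 0.1) over 70 splits. For correlations, log2 CPM had a prior count of 2. The correlation among members and its alternatives were added after the data were seen. Scripts for the tests were tried on simulated data.

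The genes named were all members, C3, the receptors and inhibitors of their pathways, the 2 genes of each pathway list with the smallest unadjusted p and any called, and the 3 genes closest to each member. Cebpd and Acvr1c were named after their values were seen. The members and lists were chosen with earlier results of these data known, and the lists were written from general knowledge. Depth was 13266029 to 23354212 counts per tumor. Counts are read pairs without molecular identifiers, so the interval given for Tnf covers counting error only.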

Additional observations from a re-analysis of the deposited data

Results flagged for a closer look

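Within a genotype, a tumor was looked up again where its gap to the nearest of the other 3 exceeded Dixon's critical share of the range of the 4. Of 38 groups of 4 tumors examined, 4 had such a tumor, where chance at this limit gives about 1.9. On the log2 CPM scale, Il6 in C3-/- replicate 4 was 2.27, against 1.02 to 1.20 in the other C3-/- tumors. Inhba in WT replicate 1 was 5.70, against 6.51 to 6.63 in the other WT tumors. The mean of the macrophage and monocyte markers in WT replicate 3 was 6.49, against 6.25 to 6.27. The mean of the skeletal muscle markers in C3-/- replicate 2 was -1.78, against 6.92 to 8.12.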

How the results depend on the processing

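The count of members called at an adjusted p below 0.05, and that of pathway genes called, was 0 under every alternative run, including the replicate block, where it was 0. Correlations of same-numbered tumors had mixed signs (-0.03, 0.49, -0.36 and 0.59 for numbers 1 to 4), so the numbers were not taken to pair them. In CPM, 2 members were without overlap (Tnf and Tnfsf12), beside 3.73% of all genes tested, among which Tnf was not. This count became 1 in the deposited FPKM and 1 with DESeq2 size factors, where only Tnf stayed apart, and 2 to 3 with 1 tumor left out. Of the 3 neighbouring levels that differed, 0 passed with any tumor left out, although all kept their direction. With fewer tumors the smallest p of that exact test is higher. The 2 correlated pairs of members remained 2 in log2(FPKM + 0.1) and became 0 to 2 with a tumor left out, 2 without C3-/- replicate 2 and 0 without any other. The sign of the log2 fold change turned for Gdf15 (-0.22 to 0.18 over tumors left out) and Osm (-0.89 to 0.52), and that of the level difference for Il1b minus Lif (-0.42 to 0.14), Tnfsf12 minus Il1a (-0.011 to 0.27) and Il6 minus Pthlh (-0.36 to 0.10). The other 8 members kept their direction throughout. The causes were not tested. Tnf rests on at most 12 counts per tumor, which limits its precision.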
